A study of Homo sapiens with 3 samples.

Results

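The genes described here encode the heterogeneous nuclear ribonucleoproteins (hnRNPs) and the serine/arginine-rich (SR) splicing factors, 35 genes chosen by symbol: 20 HNRNP genes, PTBP1, 12 SRSF genes, TRA2A and TRA2B. All 35 were found once among the 63241 genes of the footprint table, and all 35 were among the 19820 genes with enough counts to be tested. Their ribosome footprints were measured by Ribo-seq, in which the mRNA fragments shielded by ribosomes are sequenced and counted per gene, in HEK293T, a line from human embryonic kidney, expressing wild-type (WT), G245S or R273H p53. Both mutants carry a missense change in the part of this tumor suppressor that contacts DNA. Each group comprised 3 dishes, and the 9 libraries held 18.7 to 24.6 M counts.

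Several features of the cells and libraries limit the comparisons. All groups carry a p53 construct, and all carry the SV40 large T antigen of the line, a viral protein that binds p53. The study's methods describe stable lines made with lentivirus, whereas a label also speaks of transient expression, and the treatment label of both mutants names the WT construct, so groups were taken from the titles. The study's methods describe the dishes of each group as independent dishes of that group's cell line. The 3 dishes of a group were pooled at reverse transcription. Construct, cell line and pool therefore cannot be told apart, and p-values measure only the spread between dishes of a line. Cells without a construct, matched RNA-seq and a spike-in were not used here, so each fold change is set against the rest of its library, and mRNA abundance and translation cannot be told apart. Of the markers checked, KRT18 (107 to 122 CPM, footprint counts scaled to a common library total) and VIM (883 to 983 CPM) were well covered in every dish. So were CDH2 (264 to 297 CPM) and NEFM (255 to 285 CPM), and KRT8 lay at 32.6 to 44.8 CPM. The epithelial markers EPCAM (3.30 to 5.33 CPM) and CDH1 (5.20 to 8.63 CPM) were low for cells labelled epithelial, and PAX2 lay at 4.99 to 8.12 CPM. The fibroblast markers COL1A1 and COL3A1 had 24.7 to 34.2 and 3.38 to 5.28 CPM. PTPRC and ALB reached 0.16 and 0.11 CPM at most, and CD3E and HBB had no counts.

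SR proteins carry RNA-recognition motifs and a domain rich in arginine and serine, and they generally bind exonic enhancers and help the spliceosome to choose nearby splice sites. hnRNPs coat nascent transcripts, and many of them oppose exon inclusion or act in either direction depending on where they bind. The levels of many of these proteins are held by a feedback loop in which the protein promotes a splice form of its own transcript that is removed by nonsense-mediated decay.

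A pair of close relatives in each branch is shown first because the estimated fold changes of its members were unlike. The difference in fold change within each pair was not tested. The pairs are also shown because footprints of near-identical sequence can be assigned to the wrong gene. SRSF2 and SRSF8, of which the latter is an intronless gene, were identical at 84.7% of aligned coding positions. HNRNPH1 and HNRNPH2 were identical at 87.6%. The longest stretch of coding sequence that each pair shares is printed in capitals, 34 bases for the SRSF pair and 50 for the HNRNPH pair, each with 30 flanking bases in lower case. All are on the coding strand from GRCh38. The SRSF2 segment lies in exon 1 of 3 (chr17:76737054-76737147, minus strand), that of SRSF8 in its only exon (chr11:95067240-95067333, plus strand), that of HNRNPH1 spans the junction of exons 7 and 8 of 14 (chr5:179617869-179618034, minus strand, intron removed), and that of HNRNPH2 lies in exon 2 of 2 (chrX:101412730-101412839, plus strand).
SRSF2: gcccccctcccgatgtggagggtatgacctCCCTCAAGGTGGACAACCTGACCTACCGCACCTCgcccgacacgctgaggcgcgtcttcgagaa
SRSF8: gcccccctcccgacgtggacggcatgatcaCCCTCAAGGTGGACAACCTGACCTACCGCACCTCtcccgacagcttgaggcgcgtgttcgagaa
HNRNPH1: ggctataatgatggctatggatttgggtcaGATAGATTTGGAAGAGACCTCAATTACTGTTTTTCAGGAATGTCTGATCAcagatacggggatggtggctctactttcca
HNRNPH2: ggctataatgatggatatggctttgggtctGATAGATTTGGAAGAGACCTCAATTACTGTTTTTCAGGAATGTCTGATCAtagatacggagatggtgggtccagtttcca
A footprint that falls inside the capitals cannot be told apart between the members of a pair. Such sequence is a small part of each gene. Of the 30-base coding windows of SRSF2, 0.789% occur in SRSF8, and of those of SRSF8, 0.612% occur in SRSF2. HNRNPH1 and HNRNPH2 share 2.96% of the windows of each.

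These genes took a sizeable part of all footprints in the cells. Their summed counts in WT were 2.52% ± 0.0180 of a library (SD, n = 3 dishes). The share was 2.48% ± 0.0151 with G245S and 2.45% ± 0.0205 with R273H. HNRNP genes with PTBP1 held most of it, 2.05% in WT against 0.470% for SRSF and TRA2 genes. The SRSF and TRA2 share was 0.451% in G245S and 0.448% in R273H.

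Levels between genes were compared as footprint density, in CPM per kilobase of coding sequence (canonical transcript of Ensembl). In WT dishes HNRNPA2B1, a regulator of splicing and RNA transport, had the highest density at 2440 ± 44.8 CPM per kb (SD, n = 3 dishes). HNRNPC, which binds uridine tracts in introns, followed at 1694 ± 40.8, and SRSF3, which has the shortest coding region of the set, at 1522 ± 10.4. At the other end were HNRNPLL at 55.1 ± 0.378, HNRNPUL2 at 40.0 ± 1.24 and SRSF12 at 16.3 ± 0.836 CPM per kb. Footprints assigned to other genes that hold the same sequence are not in these densities. Of the summed counts of a member and such genes, the other genes held 55.8% to 59.6% for HNRNPUL2 and 37.4% to 38.8% for HNRNPA1. Their effect on the ranks was not tested.
Of the 34 pairs of neighbours in the order of density, 24 had WT dishes that did not overlap and 10 overlapped. Neighbours that overlapped included HNRNPD and SRSF2, SRSF5 and SRSF9, and SRSF8 and SRSF4. With the longest annotated coding region in place of the canonical one, HNRNPF and HNRNPL, which overlapped, exchanged places and every other member kept its rank.

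Against these levels the changes were small. A gene was called when its edgeR quasi-likelihood test (Benjamini-Hochberg adjustment over all 19820 genes) gave an adjusted p under 0.05. In G245S against WT 8 of the 35 members were called, 2 higher and 6 lower, or 22.9%, beside 24.7% of all genes tested (12.6% higher and 12.1% lower). Of the members 13 passed in R273H (1 above WT, 12 below it), or 37.1%, beside 28.8% of all genes (14.2% higher and 14.6% lower). The median log2 fold change of the members was -0.025 in G245S and -0.038 in R273H, beside -0.00069 and -0.0024 for all genes tested. Once trends with coding length and GC content were taken out of each library, these medians were 0.0057 and -0.024, beside 0.016 and 0.0097 for all genes.

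Because these genes are abundant, and abundant genes are called more often, the members were also set beside genes with a mean of at least 60 CPM, which include 34 members (all but SRSF12) of 3792 genes. Of those genes 48.6% were called in G245S (29.4% higher, 19.2% lower) beside 23.5% of the members, and 54.4% in R273H (29.7% higher, 24.7% lower) beside 38.2% of the members. Of the members in this class 5.88% were called higher in G245S and 2.94% in R273H, and 17.6% and 35.3% were called lower. The differences between these shares were not tested.

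The size of the log2 fold change stayed under 0.1 for 32 members in G245S and 27 in R273H, and exceeded 0.2 for SRSF8 in G245S and for SRSF8 and HNRNPA0 in R273H. No member passed a test against a minimum change of 1.2-fold (glmTreat in edgeR), and 1 had an unadjusted p under 0.05 in it, SRSF8 in R273H (glmTreat adjusted p = 0.44). The dishes of the groups compared did not overlap for 17 members in G245S and 16 in R273H, among them every called member, or 48.6% and 45.7%, beside 37.4% and 41.2% of all genes tested. Members with an unadjusted p under 0.05 also numbered 17 and 16, beside 35.7% and 38.8% of all genes. Among genes of at least 60 CPM the dishes did not overlap for 57.3% in G245S and 63.6% in R273H and an unadjusted p under 0.05 was reached by 59.7% and 63.8%, above the shares of the members of that level (17 and 16 of 34 by either measure).

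**Figure D1:**
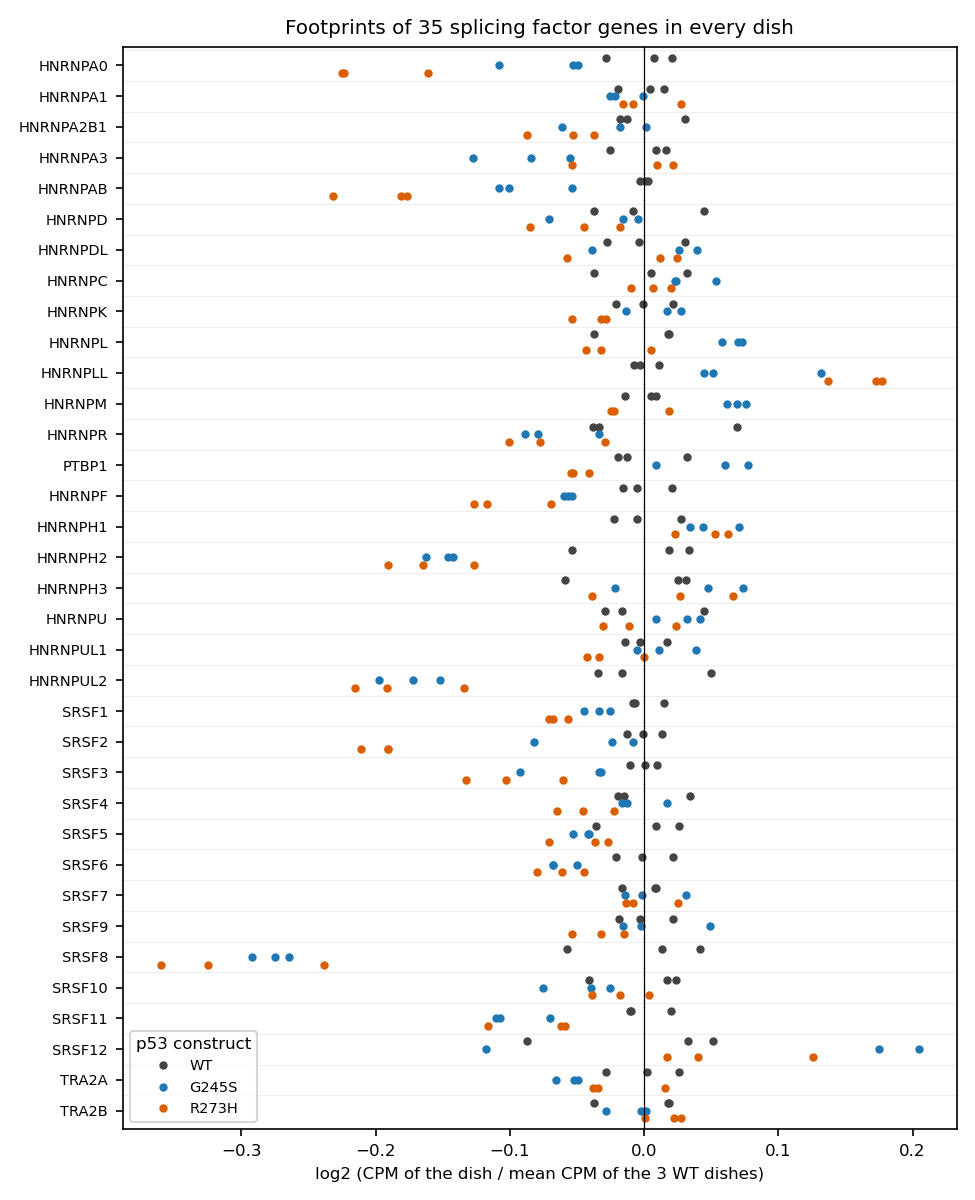
Each point is 1 dish, plotted as log2 of its CPM over the mean CPM of the 3 WT dishes, for all 35 genes grouped by family; grey, blue and orange mark WT, G245S and R273H dishes. Most points lie within 0.1 of 0, while SRSF8, HNRNPH2 and HNRNPUL2 are lower in both mutants and SRSF2, HNRNPA0 and HNRNPAB are lowest in R273H.

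**Figure D2:**
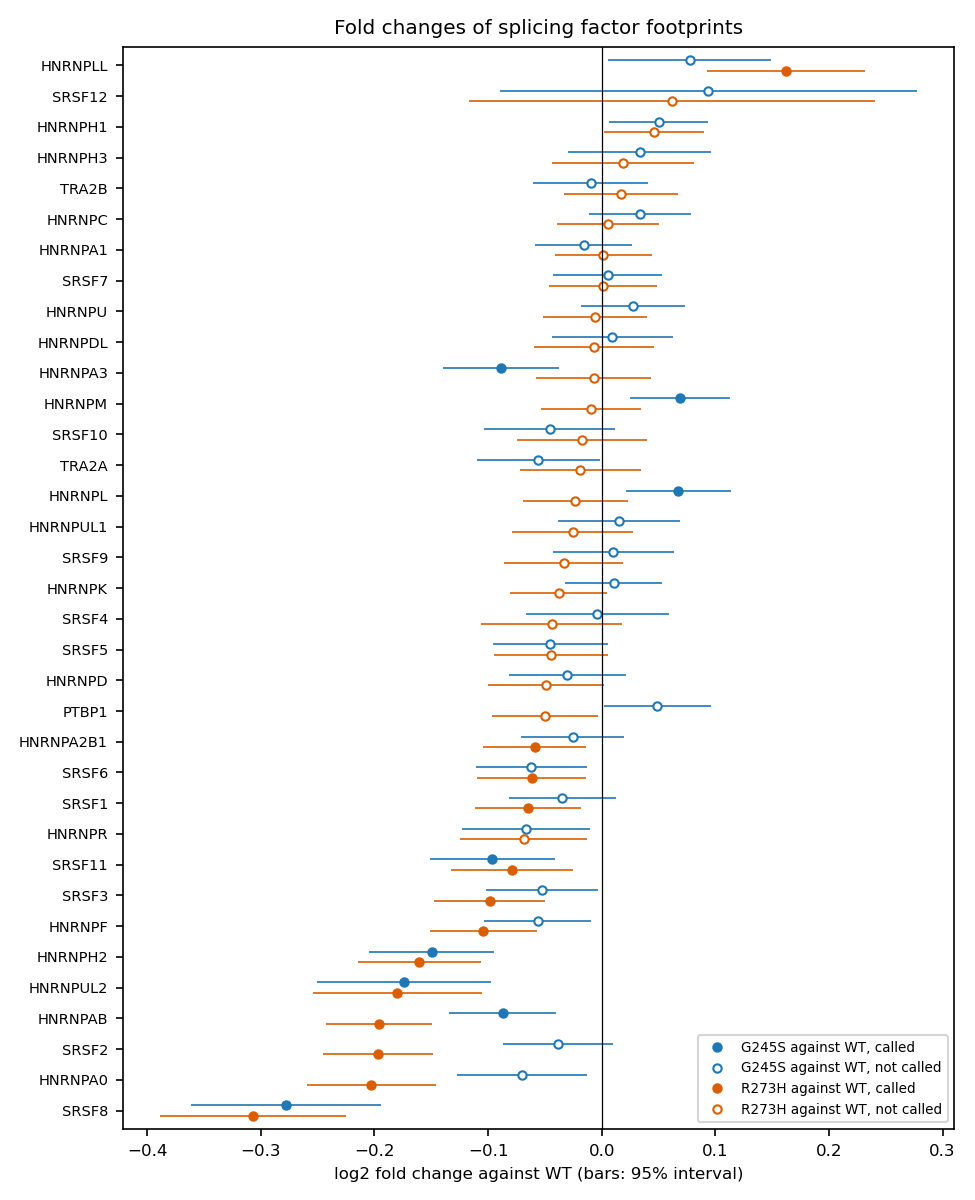
Log2 fold changes against WT for the 35 genes with 95% intervals, ordered by the R273H value; filled symbols are called (adjusted p under 0.05) and open symbols are not. In R273H 12 of the 13 called genes lie below 0 and HNRNPLL lies above it, and the widest intervals belong to SRSF12, the gene with the fewest footprints.

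Of the 8 canonical SR proteins (SRSF1 to SRSF7 and SRSF9) 4 were called in R273H, all lower. Of all genes 14.6% were called lower in R273H, and of genes of at least 60 CPM 24.7%. There was no edgeR call in G245S, where 2 had an unadjusted p under 0.05 and DESeq2 called 1. In G245S 24.7% of all genes were called in either direction, and 48.6% of genes of at least 60 CPM. The largest of the 4 calls in R273H was SRSF2, a nuclear SR protein that activates exons with G- and C-rich enhancers. The study followed SRSF2 as a protein near mutant p53. SRSF2 (chr17:76734115-76737333, minus strand) had 591, 585 and 581 CPM in the WT dishes, 582, 576 and 553 in G245S and 506, 513 and 513 in R273H. Every R273H dish was below every other dish, whereas a G245S dish lay within the WT range. The log2 fold change was -0.20 in R273H (SE 0.024, edgeR adjusted p = 2.2e-07, 12.8% lower) and -0.038 in G245S (95% interval -0.087 to 0.010, edgeR adjusted p = 0.26).

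SRSF3, which acts in splicing and in mRNA export and is under strong autoregulation, went from 749 ± 5.13 CPM in WT to 699 ± 17.6 in R273H (SD, n = 3 dishes), a log2 fold change of -0.098 (SE 0.024, edgeR adjusted p = 0.0023). SRSF1, a founding SR protein and a regulator of splice site choice, changed by -0.065 in R273H (SE 0.023, edgeR adjusted p = 0.031), and SRSF6, an exon-enhancer binding protein, by -0.062 (SE 0.024, edgeR adjusted p = 0.049). These 3 calls depended on the processing. Once trends with coding length and GC content were taken out of each library, SRSF3 stood at -0.038 (limma adjusted p = 0.15), SRSF1 at -0.018 (limma adjusted p = 0.55) and SRSF6 at -0.041 (limma adjusted p = 0.13), and SRSF6 lost its call in each of the 9 fits without 1 dish and SRSF1 in 6 of them. The 4 canonical members not called in R273H had log2 fold changes from -0.044 (SRSF5) to 0.0012 (SRSF7), and the 8 in G245S from -0.062 (SRSF6) to 0.010 (SRSF9). The intervals of these members reached from -0.11 to 0.063.

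Among the SR-related genes, SRSF8 changed most of all members in both mutants. SRSF8 (chr11:95066919-95071225, plus strand) encodes an SRSF2-like protein. It had 81.2, 79.6 and 75.8 CPM in the WT dishes, 65.6, 64.4 and 65.1 in G245S and 62.9, 66.8 and 61.4 in R273H. All mutant dishes lay below all WT dishes, and the dishes of both mutants overlapped. The log2 fold change was -0.28 in G245S (SE 0.041, edgeR adjusted p = 7.3e-06, 17.5% lower) and -0.31 in R273H (SE 0.040, edgeR adjusted p = 8.5e-07, 19.2% lower), and both calls held in all 9 fits without 1 dish. Its relative SRSF2 stood at -0.038 in G245S, and the difference between the fold changes of the pair was not tested.

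SRSF11, an SR-related protein linked to the inclusion of short exons, had 260, 255 and 255 CPM in the WT dishes, 244, 238 and 238 in G245S and 246, 237 and 246 in R273H. WT dishes were all higher than mutant dishes. It was called at -0.096 in G245S (SE 0.027, edgeR adjusted p = 0.0085) and -0.079 in R273H (SE 0.026, edgeR adjusted p = 0.024), and the second call was lost without WT dish 1 (adjusted p = 0.092) or R273H dish 2 (adjusted p = 0.15), with upper-quartile scaling (0.085) and with no filter on low counts (0.12).

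SRSF12, a low-abundance member that can oppose other SR proteins, had the largest positive log2 fold change in G245S, but with the least precision. Its dishes held 13.2, 12.0 and 13.0 CPM in WT, 14.7, 11.7 and 14.4 in G245S and 13.9, 13.1 and 12.9 in R273H, and the groups overlapped. The value was 0.094 in G245S (95% interval -0.090 to 0.28) and 0.062 in R273H (95% interval -0.12 to 0.24), so a change of this size was not detectable at this depth.

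TRA2B, an activator of exons with purine-rich enhancers, was also among the proteins the study listed as enriched near mutant p53. That proximity was measured on proteins in permeabilized cells after transient expression, not on footprints. Here the footprint level of TRA2B was close to level. Its dishes held 374, 360 and 374 CPM in WT, 369, 362 and 369 in G245S and 375, 369 and 376 in R273H. The log2 fold change was -0.0099 in G245S (95% interval -0.060 to 0.041), 0.017 in R273H (95% interval -0.033 to 0.067) and -0.027 between the mutants (95% interval -0.077 to 0.023), and none was called. The sign in G245S turned positive with upper-quartile scaling (0.0024) and with the trends with coding length and GC content removed (0.023). The remaining members not called in this family had values from -0.056 (TRA2A in G245S, edgeR adjusted p = 0.13) upward.

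**Figure D3:**
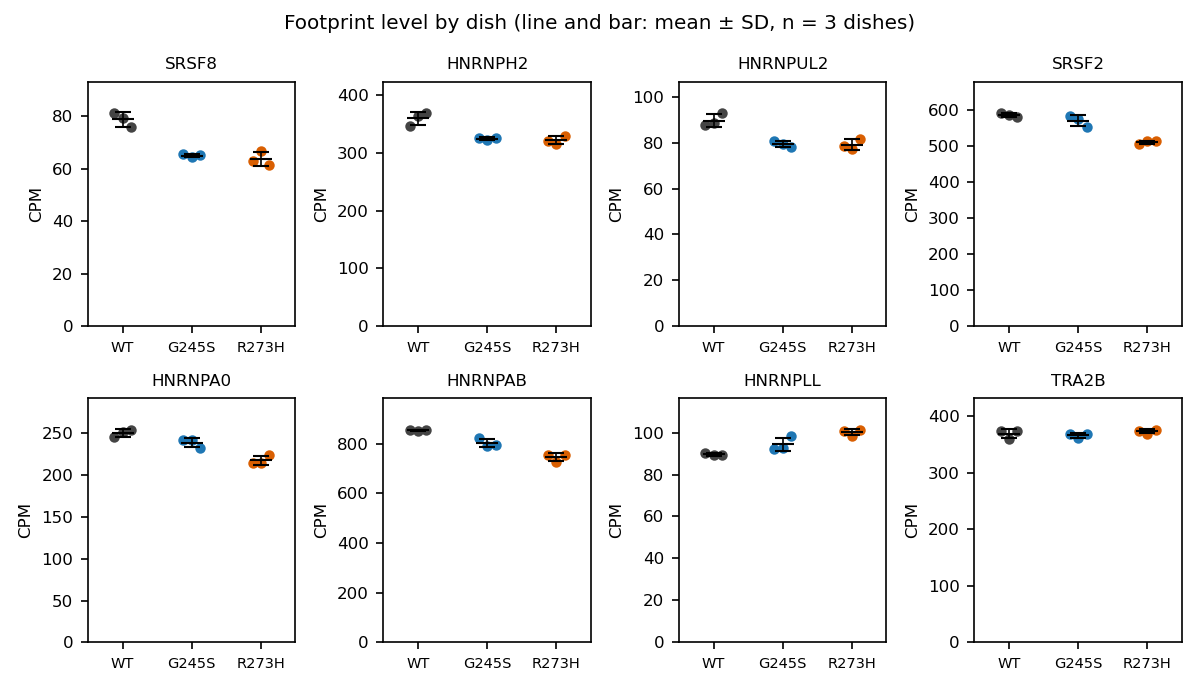
CPM in each dish (points), with mean ± SD (n = 3 dishes), for 8 members; each axis starts at 0. SRSF8, HNRNPH2 and HNRNPUL2 are lower in both mutants, SRSF2 is lower in R273H (506 to 513 CPM) than in the other groups (553 to 591), HNRNPLL is highest in R273H, and TRA2B is nearly level.

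The A/B and D type hnRNPs, which bind UAG- or AU-rich RNA, held 2 calls in G245S and 3 in R273H, all lower. This was 28.6% and 42.9% of the family, beside 12.1% and 14.6% of all genes called lower. Of genes of at least 60 CPM 19.2% and 24.7% were called lower. HNRNPA0, an intronless member that binds AU-rich elements of inflammatory transcripts (chr5:137745651-137754363, minus strand), had 245.4, 251 and 254 CPM in the WT dishes, 242, 241 and 232 in G245S and 214, 214 and 224 in R273H. R273H dishes were below all others, and G245S dishes were all below the WT dishes. Its log2 fold change was -0.20 in R273H (SE 0.028, edgeR adjusted p = 2.0e-06, 13.1% lower) and -0.070 in G245S (SE 0.028, edgeR adjusted p = 0.067, not called).

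HNRNPAB, a relative of HNRNPD found in mRNA transport granules, followed the same order of groups. Its dishes held 854, 852 and 855 CPM in WT, 822, 792 and 796 in G245S and 753, 727 and 755 in R273H, with no overlap between any groups. It was called at -0.20 in R273H (SE 0.023, edgeR adjusted p = 1.4e-07) and at -0.087 in G245S (SE 0.023, edgeR adjusted p = 0.0055), although the latter missed the threshold without G245S dish 2 (adjusted p = 0.055).

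HNRNPA3, a cytoplasmic trafficking factor, was called in G245S. It went from 707 ± 10.8 CPM in WT to 665 ± 16.8 (SD, n = 3 dishes), a log2 fold change of -0.089 (SE 0.025, edgeR adjusted p = 0.0090) that was -0.068 and no longer called without G245S dish 2. In R273H its value was -0.0072 (95% interval -0.058 to 0.043). HNRNPA2B1, called in R273H at -0.059 (SE 0.022, edgeR adjusted p = 0.044), lost its call in 8 of the 9 fits without 1 dish and with each of the other scalings. HNRNPA1, the most studied hnRNP and a repressor of exons, was not called, with -0.016 in G245S (95% interval -0.059 to 0.027), and members of this family not called lay between -0.070 and 0.0092 in G245S and between -0.049 and 0.0014 in R273H.

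Of the 4 F/H type hnRNPs, which bind runs of guanines, 1 was called in G245S and 2 in R273H, all lower. Of all genes 12.1% were called lower in G245S and 14.6% in R273H, and of genes of at least 60 CPM 19.2% and 24.7%. HNRNPH2 (chrX:101408222-101414133, plus strand) had 347, 365 and 369 CPM in the WT dishes, 326, 322 and 326 in G245S and 321, 316 and 330 in R273H. All mutant dishes lay below the lowest WT dish. The log2 fold change was -0.15 in G245S (SE 0.027, edgeR adjusted p = 1.1e-04) and -0.16 in R273H (SE 0.026, edgeR adjusted p = 3.1e-05). HNRNPF, which binds the same motif, was called in R273H at -0.10 (SE 0.023, edgeR adjusted p = 9.0e-04) and stood at -0.056 in G245S (edgeR adjusted p = 0.073, not called).

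HNRNPH1, the close relative printed above, had values above 0 in both mutants but was not called. It held 1599, 1580 and 1636 CPM in the WT dishes, 1655, 1643 and 1686 in G245S and 1665, 1631 and 1676 in R273H. G245S dishes were above all WT dishes and R273H dishes overlapped them. The log2 fold change was 0.050 in G245S (95% interval 0.0061 to 0.094, edgeR adjusted p = 0.089) and 0.046 in R273H (95% interval 0.0024 to 0.090, edgeR adjusted p = 0.11), and DESeq2 placed both under the threshold (adjusted p = 0.048 and 0.046), as did upper-quartile scaling (0.0499 and 0.045). With the trends in coding length and GC content removed it was 0.070 in G245S (limma adjusted p = 0.0011).

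The other hnRNPs with RNA-recognition or KH domains (HNRNPC, HNRNPK, HNRNPL, HNRNPLL, HNRNPM, HNRNPR and PTBP1) held the only calls above WT. There were 2 in G245S and 1 in R273H, or 28.6% and 14.3% of the 7, beside 12.6% and 14.2% of all genes called higher. Of genes of at least 60 CPM 29.4% and 29.7% were called higher. HNRNPLL, known for the switch of CD45 splice forms in lymphocytes (chr2:38561969-38603586, minus strand), had 90.2, 89.3 and 89.1 CPM in the WT dishes, 92.4, 92.8 and 98.1 in G245S and 101, 98.5 and 101 in R273H. All mutant dishes were above all WT dishes. It rose by 0.16 in R273H (SE 0.034, edgeR adjusted p = 5.9e-04, 11.9% higher) and stood at 0.077 in G245S (SE 0.035, edgeR adjusted p = 0.11, not called), where it was called with the length and GC trends removed (0.096, limma adjusted p = 0.010).

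HNRNPM, a regulator of splicing in epithelial and mesenchymal cells, had 940, 955 and 953 CPM in the WT dishes, 996, 991 and 1001 in G245S and 933, 934 and 961 in R273H. G245S dishes were above all others and the R273H dishes overlapped WT. It was called in G245S at 0.069 (SE 0.022, edgeR adjusted p = 0.018, or adjusted p = 0.076 without WT dish 1) and stood at -0.0095 in R273H (95% interval -0.053 to 0.034), a sign that turned positive with upper-quartile scaling (0.0062) and with no filter on low counts (0.00094). HNRNPL, which binds CA repeats, was called in G245S at 0.067 (SE 0.023, edgeR adjusted p = 0.029), a call lost without WT dish 2 (adjusted p = 0.18), G245S dish 1 (0.065) or G245S dish 2 (0.093), and stood at -0.023 in R273H. PTBP1, the pyrimidine tract repressor of neuronal exons, was not called against WT (0.049 in G245S, -0.050 in R273H). The members of this group not called lay between -0.067 and 0.077 in G245S and between -0.069 and 0.0056 in R273H, in each case with HNRNPR lowest.

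The U type hnRNPs, which also bind chromatin, held 1 call of 3 in each mutant (33.3%). Of all genes 12.1% were called lower in G245S and 14.6% in R273H, and of genes of at least 60 CPM 19.2% and 24.7%. The called member was HNRNPUL2 (chr11:62712630-62727457, minus strand). It had 87.6, 88.7 and 92.8 CPM in the WT dishes, 80.7, 79.6 and 78.2 in G245S and 78.5, 77.2 and 81.7 in R273H. All mutant dishes were below all WT dishes. The log2 fold change was -0.17 in G245S (SE 0.037, edgeR adjusted p = 8.1e-04) and -0.18 in R273H (SE 0.036, edgeR adjusted p = 3.7e-04). HNRNPU, the scaffold attachment factor, was not called (0.028 and -0.0058), nor was HNRNPUL1 (0.015 and -0.025).

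Compared directly, the mutants differed in 6 members, all with more footprints in G245S than in R273H. No member was called lower by edgeR, 2 were lower with an unadjusted p under 0.05, and DESeq2 called 1 of them (HNRNPA3). This was 17.1% of the members, beside 2.59% of all genes tested (1.86% higher in G245S and 0.732% lower), and 17.6% of the members with a mean of at least 60 CPM, beside 7.46% of genes of that level (6.28% higher and 1.19% lower). The median log2 fold change of the members was 0.028 beside 0.00059 for all genes. The dishes of the mutants did not overlap for 14 members, all 6 called ones included (40.0%, beside 21.5% of all genes), and 10 members had an unadjusted p under 0.05 (28.6%, beside 15.7%). Among genes of at least 60 CPM the shares were 34.6% and 30.1%, beside 41.2% and 29.4% of the members of that level.

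SRSF2 differed most, by 0.16 (SE 0.024, edgeR adjusted p = 2.4e-04), and it alone was called in all 9 fits without 1 dish. HNRNPA0 differed by 0.13 (edgeR adjusted p = 0.0068), HNRNPAB by 0.11 (edgeR adjusted p = 0.0069) and PTBP1 by 0.099 (edgeR adjusted p = 0.016). HNRNPL differed by 0.090 (edgeR adjusted p = 0.024) and HNRNPM by 0.079 (edgeR adjusted p = 0.043).
PTBP1 is an example of a small difference with a clear order: its dishes held 959, 948 and 915 CPM in G245S against 884, 876 and 875 in R273H. Without G245S dish 1 SRSF2 was the only member called, and without G245S dish 2, R273H dish 1 or R273H dish 2 the number was 2. HNRNPM also lost its call without WT dish 2 or G245S dish 3 and with other scalings, and HNRNPL and PTBP1 without R273H dish 3. SRSF8, HNRNPH2 and HNRNPUL2, lower in both mutants, did not pass between them, with 95% intervals of -0.055 to 0.11, -0.044 to 0.065 and -0.069 to 0.081.

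GC content moved with this comparison. The 6 called members had 55.6% to 66.8% GC in their coding regions, beside a median of 48.7% for the 29 not called, and over the 35 members Spearman's rho of log2 fold change and GC content was 0.66 (for R273H against WT -0.53 and for G245S against WT -0.13). This is a correlation across genes of the same libraries, which are not independent replicates. Across 10886 genes, the rho of a library's log2 level, relative to the mean of all libraries, and GC content was 0.26, 0.13 and -0.18 in the WT dishes, 0.34, 0.30 and -0.18 in G245S and -0.18, -0.14 and -0.42 in R273H.
Once these trends, and those with coding length, were taken out, 7 members were called between the mutants and rho over the members was 0.29 (for R273H against WT -0.44 and for G245S against WT -0.26). SRSF2 then differed by 0.10 (limma adjusted p = 0.0049) and HNRNPA0 by 0.086 (limma adjusted p = 0.17, not called), while HNRNPAB, HNRNPL, HNRNPM and PTBP1 were still called, together with HNRNPK and HNRNPA2B1. SRSF8 has a GC content of 65.7%, close to that of SRSF2, and its value between the mutants was 0.029, or -0.021 with the trends taken out. Beyond this, the part of GC content in the differences was not tested.

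**Figure D4:**
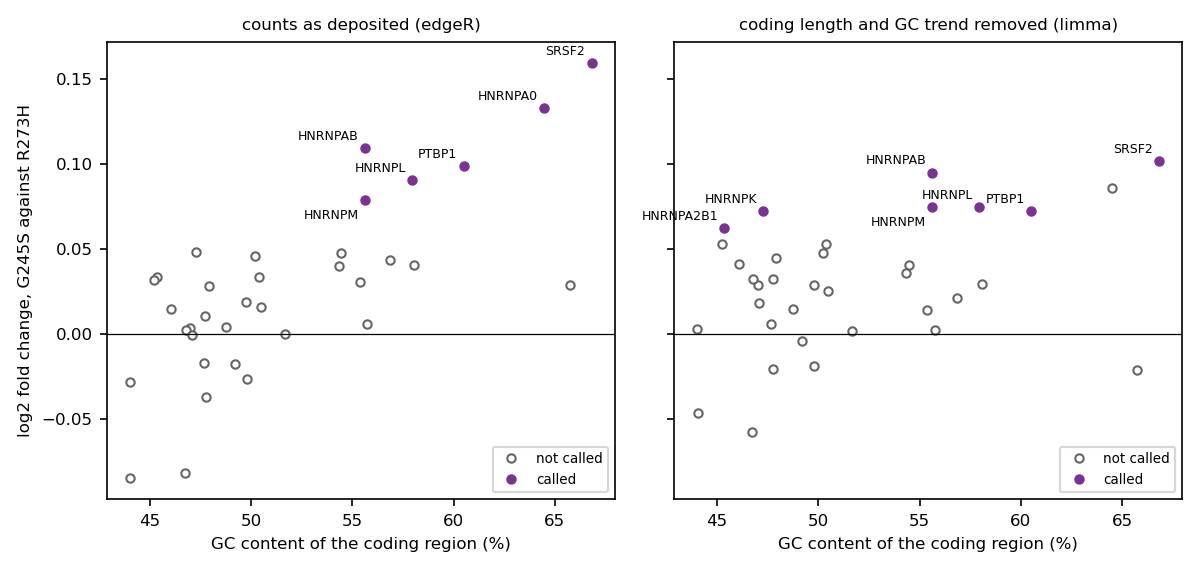
Log2 fold change of G245S against R273H for the 35 genes against the GC content of their coding regions, from the counts as deposited (left) and after taking out the trends with coding length and GC content in each library (right); filled symbols are called. On the left all 6 called genes lie above 55% GC, and on the right 7 genes are called, 2 of them below 50% GC.

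Many of these genes have copies elsewhere in the genome, so the assignment of footprints matters. The share of 30-base coding windows that also occur in another gene was 96.5% for HNRNPUL2, 96.4% for SRSF1, 93.8% for HNRNPA3, 89.7% for HNRNPA1, 82.2% for HNRNPC and 81.6% for SRSF6, while HNRNPA0, HNRNPA2B1, HNRNPLL, HNRNPUL1, SRSF4, SRSF5, SRSF7, SRSF12 and TRA2B shared none. For HNRNPA1 the sharing genes included 76 pseudogenes. For HNRNPUL2 and HNRNPH2 the main sharing genes were the annotated read-through genes HNRNPUL2-BSCL2 and RPL36A-HNRNPH2 on the same strand.
Of the summed counts of a member and its sharing genes, the sharing genes held 55.8% to 59.6% for HNRNPUL2, 39.9% to 43.8% for HNRNPH2, 37.4% to 38.8% for HNRNPA1 and 35.5% to 38.8% for HNRNPA3. The whole count of each sharing gene entered the sum. For a read-through gene this includes footprints on the part that belongs to its other gene. For SRSF2 no gene reached the 5% of windows needed to be summed, and for SRSF8 the sharing genes held at most 1.89%.

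When the counts were summed in this way, 8, 11 and 6 members were called in the 3 comparisons. The summed values are thus not those of the member's sequence alone. HNRNPUL2 stood at -0.14 in G245S and -0.18 in R273H, and HNRNPH2 at -0.095 (edgeR adjusted p = 0.0097) and -0.13 (edgeR adjusted p = 4.0e-04), of which the G245S value was -0.15 before summing. HNRNPA3 kept its G245S call at -0.065 (edgeR adjusted p = 0.048). Both SRSF1 (edgeR adjusted p = 0.068) and SRSF6 (edgeR adjusted p = 0.061) lost their R273H calls.

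**Figure D5:**
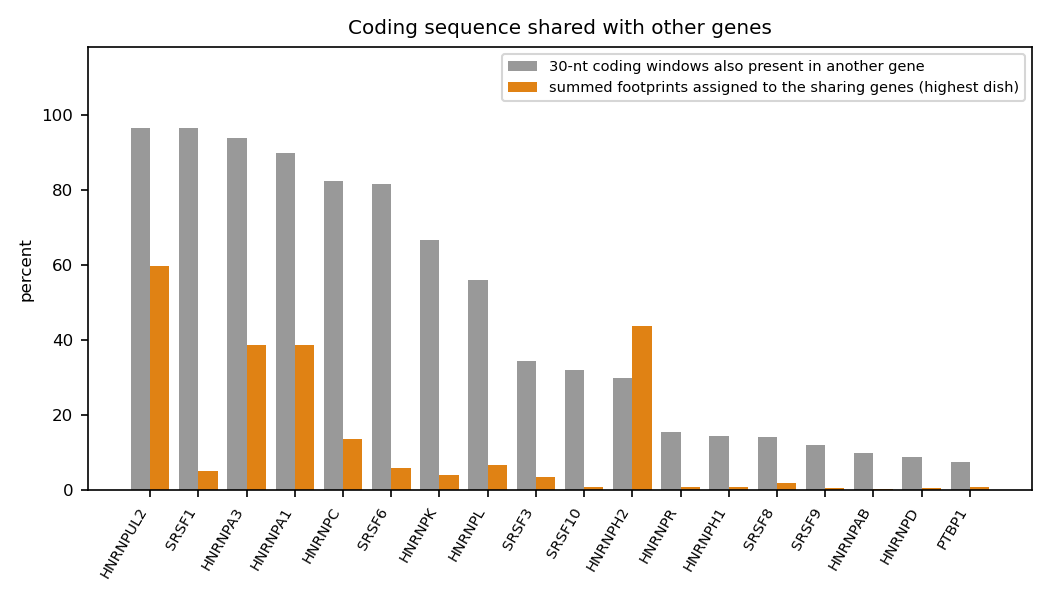
For the members with at least 5% of their 30-base coding windows in another gene, grey bars give that percent and orange bars the percent of summed footprints assigned to the sharing genes in the dish with the highest value. HNRNPUL2 (59.6%), HNRNPH2 (43.8%), HNRNPA1 and HNRNPA3 (both 38.8%) have the largest shares of footprints on sharing genes, while SRSF1, with 96.4% of windows shared, has 5.08%.

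The genes that act on or beside these factors were taken from 4 lists. Of 12 genes for SR protein phosphorylation and nuclear import, 5 were called in G245S (3 higher, 2 lower), or 41.7%, and 6 in R273H (3 higher, 3 lower), beside 24.7% and 28.8% of all genes. Among genes of at least 60 CPM the shares were 48.6% and 54.4%. TNPO1, the importin that carries hnRNP A1 to the nucleus, rose by 0.30 in G245S (SE 0.029) and 0.34 in R273H (SE 0.028), and TNPO3, the importin for SR proteins, by 0.21 (SE 0.032) and 0.23 (SE 0.031). Of the CLK kinases, which phosphorylate SR proteins in the nucleus, CLK1 fell by 0.32 (SE 0.049) in G245S and by 0.22 (SE 0.047) in R273H. CLK4 fell by 0.45 (SE 0.076) in G245S and stood at -0.00062 in R273H, and CLK3 fell by 0.14 (SE 0.052, edgeR adjusted p = 0.042) in R273H and stood at -0.11 in G245S (edgeR adjusted p = 0.15, not called). CLK2 was called in neither mutant (-0.071 in G245S, 0.025 in R273H). The CLK3 call was lost with DESeq2 (adjusted p = 0.12) and in 5 of the 9 fits without 1 dish, and without WT dish 2 it was -0.094 (adjusted p = 0.26).

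Of 37 other splicing regulators tested (38 listed), 9 were called in G245S (2 higher, 7 lower), or 24.3%, close to the 24.7% of all genes. In R273H 15 were called, all lower, or 40.5%, beside 14.6% of all genes and 24.7% of genes of at least 60 CPM called lower. The median was -0.038 and -0.043, beside -0.00069 and -0.0024 for all genes. PTBP3, a PTBP1 relative, fell by 0.49 in G245S (SE 0.038) and by 0.43 in R273H (SE 0.037). RBM5, a regulator of apoptotic genes, fell by 0.15 in G245S, and SFPQ, a paraspeckle protein, fell by 0.17 in R273H. MATR3, a nuclear matrix protein, stood at 0.090 in G245S (edgeR adjusted p = 0.011), and MBNL2, a muscleblind factor of low level, at 0.28 (edgeR adjusted p = 0.027, DESeq2 adjusted p = 0.085). MATR3 lost its call without WT dish 1, WT dish 2, G245S dish 1 or G245S dish 3, and MBNL2 without WT dish 2, G245S dish 1 or G245S dish 3.

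Of 53 core spliceosome genes 22 (41.5%) were called in G245S (14 higher, 8 lower) and 25 (47.2%) in R273H (12 higher, 13 lower). Of all genes tested 24.7% and 28.8% were called, and of genes with a mean of at least 60 CPM 48.6% and 54.4%. BUD31 fell by 0.27 in G245S and by 0.26 in R273H. AQR, a helicase of the intron-binding complex, rose by 0.17 and 0.25, and EFTUD2, a GTPase of the U5 particle, by 0.16 in each. U2AF2, which recognises the polypyrimidine tract, fell by 0.21 in R273H, and LSM6, called in G245S at -0.14 (edgeR adjusted p = 0.034), stood at -0.017 with the length and GC trend removed (limma adjusted p = 0.79) and lost its call in 4 of the 9 fits without 1 dish.

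Nonsense-mediated decay and exon junction genes, through which these factors limit their own transcripts, held 9 calls of 17 (52.9%) in G245S (3 higher, 6 lower) and 10 (58.8%) in R273H (3 higher, 7 lower). Those shares stand beside 24.7% and 28.8% of all genes, and 48.6% and 54.4% of genes of at least 60 CPM. The endonuclease SMG6 fell by 0.33 in G245S (SE 0.057) and by 0.30 in R273H (SE 0.055). UPF1, the central helicase, fell by 0.15 in R273H, and PNRC2, a decapping partner, was called in G245S at -0.15 and stood at -0.063 with the trend removed (limma adjusted p = 0.15). SMG8, an inhibitor of the kinase SMG1, rose by 0.16 in G245S and 0.17 in R273H. SMG1 was called at 0.15 in R273H, where leaving out WT dish 1 gave 0.095 and no call (adjusted p = 0.13), and the call was also lost without R273H dish 2. Between the mutants, 1 gene of the SR kinase list was called lower in G245S (CLK4, named after its values were seen, at -0.45, edgeR adjusted p = 7.6e-04), 5 other regulators and 4 core spliceosome genes were called higher. These were 8.33%, 13.5% and 7.55% of the genes tested in each list. Of all genes 2.59% were called between the mutants, and of genes of at least 60 CPM 7.46%.

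Promoters were searched for the decameric p53 half-site because p53 is a transcription factor. In the RefSeq windows of 300 bases on GRCh38.p14 that were matched for 32 of the 35 members, 2 (6.25%) held the motif, those of SRSF4 and HNRNPC, beside 6.54% of 27305 promoters. Neither gene was called in the edgeR comparisons, and HNRNPC was called in G245S with the length and GC trends removed (0.068 in place of 0.034, limma adjusted p = 0.0028). HNRNPA1, SRSF2 and TRA2A had no matched window.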

How the data were processed

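Per the labels and the study's methods, the authors prepared monosome footprints from cycloheximide-treated dishes, aligned reads to GRCh38 with STAR after Trim Galore and used UMI-tools. The authors deposited 1 table of expected counts (estimated counts per gene, not scaled). The counting tool, strand handling, and whether counts cover coding regions only are not given in the sources used here. Between 61.5% and 63.7% of nonzero values per library were not whole.

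Counts were rounded and tested with edgeR 4.0.16 (R 4.3.3; TMM, filterByExpr, robust glmQLFit, glmQLFTest, two-sided) in 1 fit of 9 libraries with group as the only term (6 residual degrees of freedom) and Benjamini-Hochberg adjustment over 19820 genes. TMM factors ranged from 0.987 to 1.01, with a biological coefficient of variation of 2.58%. CPM values are TMM-scaled, and standard errors come from log2 fold change and F statistic. The fit was tested on simulated data. Pairs of dishes of a group differed by more than counting noise (chi-square over degrees of freedom 1.48 to 2.62). Counting precision is covered by the spread between dishes.

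Members and lists were chosen with earlier results of these data known. Members were named where called, SRSF2 and TRA2B always, the 3 largest changes per direction against WT with every dish, and from each other list the 2 largest calls per direction, of which 1 is not reported here. GENCODE v44 (99.1% of identifiers matched) gave coordinates and coding regions. Biopython 1.88 aligned coding regions. Alternatives were RLE and upper-quartile scaling, no filter, DESeq2 1.42.0, glmTreat, only 6 libraries, dish number as a block, the trend removal with limma 3.58.1 on 13615 protein-coding genes, leaving out each dish, and, chosen after seeing the data, summed counts of sharing genes.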

Additional observations from a re-analysis of the deposited data

Results flagged for a closer look

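The effects of the mutants differed in a direct test for 6 genes, each with a higher footprint level in G245S than in R273H. The log2 difference was 0.16 for SRSF2 (edgeR adjusted p = 2.4e-04), 0.13 for HNRNPA0 (edgeR adjusted p = 0.0068) and 0.11 for HNRNPAB (edgeR adjusted p = 0.0069), all of which were lower in R273H than in WT. It was 0.099 for PTBP1 (edgeR adjusted p = 0.016), 0.090 for HNRNPL (edgeR adjusted p = 0.024) and 0.079 for HNRNPM (edgeR adjusted p = 0.043). For each gene 3 of 3 G245S dishes were above 3 of 3 R273H dishes. The coding regions of these genes are richer in G and C than those of most other members, and the part of this in the differences was not tested beyond the removal of the trend, under which HNRNPA0 alone of the 6 lost its call.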

How the results depend on the processing

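Leaving aside the minimum fold change, 4 of the 8 calls in G245S, 8 of the 13 in R273H and 1 of the 6 between the mutants (SRSF2) held under every other alternative. Tested against a minimum change of 1.2-fold (glmTreat), 0 members were called in each comparison, and 547, 693 and 3 of all genes were called in the G245S and R273H comparisons with WT and in that between the mutants. Members called without 1 dish ranged from 5 to 9 (5 without G245S dish 2), 9 to 12 and 1 to 6, and all genes called between the mutants from 162 (without G245S dish 1) to 712; with 2 dishes in a group the spread is shared across groups. Signs turned under at least 1 alternative for 8 members in G245S, 11 in R273H and 13 between the mutants, none of them called before or after the turn, and none with a log2 size above 0.053. With upper-quartile scaling HNRNPM, HNRNPA3 and HNRNPU in R273H were 0.0062, 0.0086 and 0.0099, and TRA2B in G245S was 0.0024. With no filter the R273H values were 0.00094, 0.0033 and 0.0047, and HNRNPUL2 between the mutants was -0.00097. With the trend removed HNRNPA1 and TRA2B in G245S were 0.0071 and 0.023, and SRSF8 between the mutants was -0.021. With summed counts HNRNPA1 in R273H was -0.013. Without 1 dish, values that crossed 0 ranged, in R273H, from -0.012 to 0.012 (HNRNPA1), -0.022 to 0.016 (HNRNPA3), -0.013 to 0.024 (HNRNPC), -0.020 to 0.020 (HNRNPU), -0.0092 to 0.0086 (SRSF7) and -0.0018 to 0.028 (TRA2B), in G245S from -0.0043 to 0.034 (HNRNPDL), -0.0062 to 0.027 (SRSF9) and -0.028 to 0.0030 (TRA2B), and between the mutants from -0.0039 to 0.028 (HNRNPH2) and -0.011 to 0.030 (HNRNPUL2). With the trend removed HNRNPC, HNRNPH1 and HNRNPLL were also called in G245S, and HNRNPK and HNRNPR in R273H. The summed share of the members moved by less than 1 SD under each alternative. At this depth the interval of a member other than SRSF12 reached at most 0.15 from 0 among those not called.

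The labels number dishes 1 to 3 in each group. Deviations of same-numbered dishes correlated by 0.042 to 0.23 over 12656 genes, over 0.1 in 4 of 9 pairs, and dishes correlated best with their own number in 17 of 18 comparisons, a hint from the data and not from the design. With the dish number as a replicate block 16, 18 and 8 members were called (8, 13 and 6 without it), and 5779, 6547 and 1262 of all genes (4900, 5707 and 513 without it). The members added were HNRNPA0, HNRNPF, HNRNPH1, HNRNPR, SRSF3, SRSF6, TRA2A and PTBP1 in G245S, HNRNPD, HNRNPH1, HNRNPK, HNRNPR and PTBP1 in R273H, and HNRNPA3 and HNRNPK between the mutants.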
